A study of Homo sapiens with 36 samples.

Results

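The comparison described here is that of the HBS1L guide line with and without doxycycline (dox) at 96 h, in 6 of the 36 libraries of the series. All 6 were made from polyadenylated RNA of MIAPACA-2, an established human pancreatic carcinoma cell line, carrying Cas9 and a guide against HBS1L that dox switches on. The members were chosen by their labels: 3 libraries of cells given 2 µg/mL dox and 3 libraries of cells given no dox, both collected at 96 h in medium with tetracycline-free serum. The change is that within the line, with no subtraction of the control line; the line with the control guide labelled NTC and the line with the PELO guide (6 libraries each at 96 h), and the HBS1L line at 48 h (6 libraries), are set beside it where they differ. The labels do not say whether the line was 1 clone or a pool, nor whether the 3 libraries of a group came from separate cultures. The p-values therefore measure spread between libraries only, estimated jointly over the 12 groups of the 36 libraries.

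HBS1L is a GTPase that works with PELO, a relative of the translation termination factor, on ribosomes stuck on a messenger RNA. Together with the ATPase ABCE1 they split the stalled ribosome into its subunits, and the SKI complex then threads the freed messenger into the RNA exosome for decay. The series record states as its question what losing HBS1L or PELO does to cells with a destabilised SKI complex. In other systems collided ribosomes are known to set off the integrated stress response, in which phosphorylation of eIF2 alpha raises the transcription factor ATF4 and its target genes.

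The dox libraries held 62.5, 60.4 and 61.4 M counts, and the no dox libraries 50.3, 49.3 and 48.3 M, so every dox library was the deeper. Of the 61544 genes counted 20767 had enough counts to be tested. Levels are in CPM, counts scaled to library size, and a gene is called where edgeR's quasi-likelihood test gave a Benjamini-Hochberg adjusted p below 0.05 over those 20767 genes. The first principal component of the 6 libraries held 62.2% of their variance and separated dox from no dox. On the second, with 15.3%, dox replicate 3 lay at -6.27 and dox replicates 1 and 2 at 4.07 and 2.44, while the no dox replicates ran from -8.70 to 8.43. By chi-square per gene, the counts of dox replicate 3 differed from those of dox replicates 1 and 2 by 9.998 and 8.64. Between those 2 the value was 2.73, and between no dox libraries 4.76 to 7.33. Without dox replicate 3, 3745 genes were called in place of 4124. That was the most among the fits that each left out 1 of the 6 libraries (2898 to 3745). Mitochondrially encoded genes took 1.30% to 1.72% of the counts with dox and 1.34% to 1.83% without. Of the epithelial markers, KRT8, KRT18, KRT19, SOX9 and VIM were expressed, while EPCAM and CDH1 had at most 1.5 counts in any of the 6 libraries. Summed fibroblast markers were at 154.0 to 178.9 CPM with dox and 204.0 to 213.2 CPM without, nearly all of it COL1A2 and COL3A1, with DCN at no more than 1 count and LUM at no more than 3. Leukocyte markers summed to 25.8 to 27.5 CPM with dox and 26.3 to 27.1 CPM without, endothelial markers to 73.8 to 79.0 and 78.5 to 87.4 CPM, and pancreatic acinar and endocrine markers to at most 0.0322 CPM in any library.

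The HBS1L message was lower in every dox library. HBS1L (ENSG00000112339.15, chromosome 6, 134960378 to 135103056 on the minus strand, GRCh38) had 33.4, 34.1 and 33.8 CPM in the dox libraries, against 110.3, 113 and 109 CPM in the no dox libraries. The groups did not overlap, and the means were 33.8 ± 0.332 CPM and 110.7 ± 1.98 CPM (SD, n = 3 each), a log2 change of -1.71 ± 0.03 (SE; adjusted p = 1.78e-30). In the NTC line at 96 h the log2 change was 0.06 ± 0.03 (adjusted p = 0.289), and in the HBS1L line at 48 h it was -1.54 ± 0.03. A guide can remove a protein without lowering its message, so the residual message does not measure the protein, and in bulk RNA fewer cells with the message and less message per cell cannot be told apart.

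The partner of HBS1L was not called. PELO had 27.1, 28.5 and 28.97 CPM in the dox libraries, against 25.8, 27.4 and 26.95 CPM in the no dox libraries, and the groups overlapped (log2 change 0.08 ± 0.05, adjusted p = 0.338). Of 9 ribosome rescue genes tested, 1 was called higher and 2 lower, HBS1L itself included; over all genes 11% were called higher and 8.9% lower, 19.9% in all. GTPBP2, a GTPase of the HBS1L family linked to ribosome rescue, was at 53.5 CPM with dox against 42.4 CPM without (log2 change 0.34). ABCE1, the recycling ATPase, was at 135 CPM with dox against 149 CPM without (log2 change -0.14), a call that was lost without dox replicate 1 or 2 or no dox replicate 2. The termination factors ETF1, GSPT1 and GSPT2 were not called, with log2 changes between -0.08 and 0.04.

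The SKI complex genes stayed expressed. SKIC3, its scaffold, had 90.9, 88.8 and 86.2 CPM in the dox libraries, against 94.3, 95.5 and 104 CPM in the no dox libraries (log2 change -0.15 ± 0.05, adjusted p = 0.043); the call was lost when either no dox replicate 2 or 3 or any of the 3 dox libraries was left out. SKIC2, the helicase, and SKIC8 had log2 changes of 0.01 ± 0.04 and 0.01 ± 0.05 and were not called. FOCAD, whose protein is known to stabilise the SKI complex, had at most 1 count in any of the 36 libraries, as did CDKN2A, and MTAP had at most 2, so the genes of this stretch of chromosome 9 were at the floor in all groups of the series. Among 15 genes of the SKI complex and cytoplasmic decay 1 rose and 5 fell, HBS1L included, and 2 to 5 fell when 1 library was left out (2 without no dox replicate 2, dox replicate 1 or dox replicate 2, and 3 without no dox replicate 3). Among those that fell were EDC4, a decapping scaffold, at 74.4 CPM with dox against 91.3 CPM without, and DIS3L2, a uridylation-dependent exonuclease, at 28.3 CPM with dox against 31.7 CPM without. Of 15 RNA exosome genes 2 rose (13.3%) and 3 fell (20%), against 11% and 8.9% of all genes tested. Their log2 changes ran from -0.21 for DIS3, the catalytic subunit, to 0.24 for EXOSC8. The falls numbered 0 without no dox replicate 2 and 1 without dox replicate 1 or 2, and the rises 1 in each fit that left out a library other than dox replicate 3; the call of DIS3 was lost without no dox replicate 2 or dox replicate 2.

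Across the transcriptome the response was broad and shallow. In all 4124 genes were called, 2276 higher and 1848 lower with dox, and the median fold of the called genes was 1.20. Only 97 genes were called at least 2-fold higher and 53 at least 2-fold lower, 0.467% and 0.255% of the genes tested and 0.722% together. The dox libraries all lay above the no dox libraries for 19.2% of the genes and all below them for 17.3%. DESeq2 and limma called 69 and 73 genes past 2-fold in place of 150. Falls of at least 2-fold numbered 31 without no dox replicate 1 and up to 70 without no dox replicate 2, and falls of any size 1193 without dox replicate 2.

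**Figure D1:**
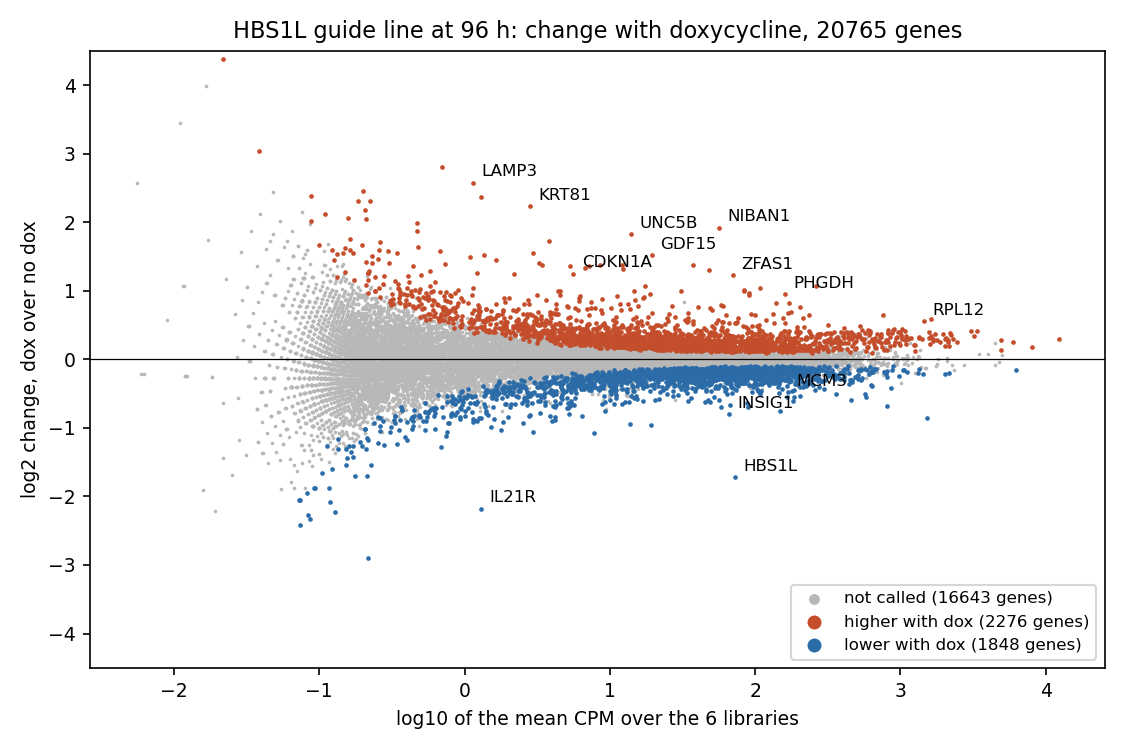
Log2 change with dox (vertical axis, dox over no dox) against the log10 of the mean CPM over the 6 libraries (horizontal axis) for 20765 of the 20767 genes tested in the HBS1L guide line at 96 h, since 2 genes were at 0 in these libraries. Each point is a gene, coloured where it was called; HBS1L lies apart from the other well-expressed genes that fell, and most called genes lie within 1 log2 unit of 0.

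Genes of the integrated stress response rose together. Of 39 tested, 32 rose, 0 fell (1 without no dox replicate 1) and 7 were not called, with a median log2 change of 0.48 over the 39 against -0.01 over all genes tested. The list holds transcription factors downstream of eIF2 phosphorylation and the amino acid enzymes and transporters they drive. ATF4 itself was at 303 CPM with dox against 237 CPM without (log2 change 0.36), and DDIT3, the CHOP factor, at 21.9 CPM with dox against 11.8 CPM without (0.89), although 39.6% of its exonic length overlaps another gene and the strand of counting is not given in the sources used here. ATF5 had 203, 219 and 234 CPM in the dox libraries, against 120.4, 124 and 125 CPM in the no dox libraries (log2 change 0.83 ± 0.04, adjusted p = 7.32e-17), with 23.7% overlap. Every dox library lay above every no dox library for ATF4, ATF5 and DDIT3.

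Secreted products of the response rose as well. GDF15, a stress-induced cytokine, had 26.4, 28.4 and 32.2 CPM in the dox libraries, against 10.8, 9.21 and 10.4 CPM in the no dox libraries. Its log2 change was 1.52 ± 0.09 (adjusted p = 1.41e-13), and in the NTC line it was 0.00 ± 0.10. INHBE, a hepatokine of the activin family, was at 4.95 CPM with dox against 1.91 CPM without, and FGF21, a metabolic hormone, at 0.372 CPM with dox against 0.134 CPM without, low levels in both groups. VEGFA, the angiogenic factor, was at 76.1 CPM with dox against 44.3 CPM without (log2 change 0.78).

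Genes of serine and asparagine synthesis rose as well. PHGDH, the first enzyme of serine synthesis, had 204, 210.4 and 219.5 CPM in the dox libraries, against 108, 106 and 114 CPM in the no dox libraries. Its log2 change was 0.95 ± 0.04, with the smallest p on the list (adjusted p = 2.87e-18). PSAT1, the next enzyme, was at 288 CPM with dox against 184 CPM without, and the one-carbon enzymes SHMT2 and MTHFD2 had log2 changes of 0.39 and 0.37. ASNS, asparagine synthetase, had 103, 111 and 122 CPM in the dox libraries, against 51.02, 54.1 and 62.5 CPM in the no dox libraries, with 44.6% of its exonic length shared with another gene. Of the proline synthesis enzymes, PYCR1 rose by 0.28 on the log2 scale and ALDH18A1, at -0.03, was not called. The pseudokinase TRIB3 was at 119 CPM with dox against 62.4 CPM without, the mTORC1 inhibitors SESN2 and DDIT4 at log2 changes of 0.56 and 0.61, and the transporters SLC7A5, SLC3A2 and SLC1A5 at 0.46, 0.36 and 0.31.

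Promoter windows of 5 members that rose are shown because their upstream sequence holds the letters of the ATF4 element. The windows are the 100 bases before an annotated start, from RefSeq on GRCh38.p14, with matches to TGATGNAAN on either strand in capitals. 
ASNS, chr7:97872409-97872508, - strand: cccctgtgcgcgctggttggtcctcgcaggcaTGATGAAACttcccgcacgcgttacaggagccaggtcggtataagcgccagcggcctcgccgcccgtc
CEBPG, chr19:33374013-33374112, + strand: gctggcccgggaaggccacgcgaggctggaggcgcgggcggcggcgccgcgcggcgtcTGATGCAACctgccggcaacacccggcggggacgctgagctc
JDP2, chr14:75427922-75428021, + strand: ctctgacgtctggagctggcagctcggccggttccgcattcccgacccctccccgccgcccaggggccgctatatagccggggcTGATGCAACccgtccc
SLC1A5, chr19:46784815-46784914, - strand: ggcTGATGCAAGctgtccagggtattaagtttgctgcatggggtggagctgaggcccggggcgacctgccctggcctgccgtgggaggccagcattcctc
FGF21, chr19:48755424-48755523, + strand: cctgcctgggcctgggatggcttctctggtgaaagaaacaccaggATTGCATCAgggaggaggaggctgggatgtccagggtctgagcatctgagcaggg
The match begins 68 bases before the start in ASNS, 42 in CEBPG, a dimer partner of ATF4, 16 in JDP2, an AP-1 repressor, 97 in SLC1A5, the glutamine carrier, and 55 in FGF21, where it lies on the opposite strand. Within 250 bases before a start, 7 of the 24 risen members with a window held the letters, and 3.87% of 27305 genes did. With windows for 24 of 32 members the share is void as a measure of the list, and a match is a description, not a site of binding.

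**Figure D2:**
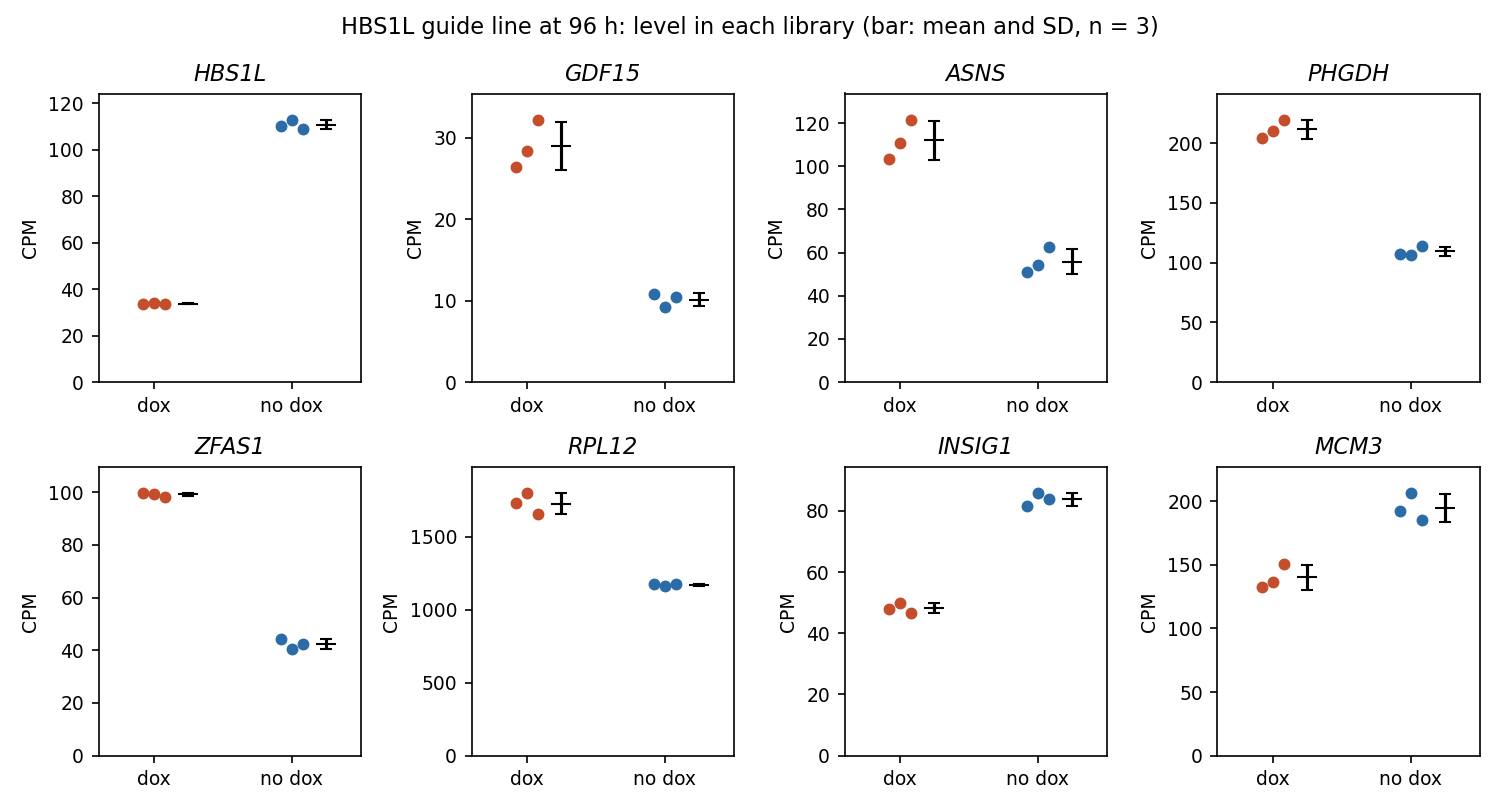
CPM (vertical axis, from 0) of 8 genes in each of the 6 libraries, dox left and no dox right, with mean and SD of 3 libraries beside the points. HBS1L, INSIG1 and MCM3 lie lower in all 3 dox libraries, and GDF15, ASNS, PHGDH, ZFAS1 and RPL12 lie higher in all 3.

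Charging enzymes for tRNA moved less. Of 20 cytosolic aminoacyl-tRNA synthetases 8 rose and 0 fell (1 without no dox replicate 3 or dox replicate 3), with a median log2 change of 0.10. SARS1 was at 267 CPM with dox against 199.6 CPM without (log2 change 0.42 ± 0.04, adjusted p = 3.27e-11) and GARS1 at 464 CPM with dox against 357 CPM without (0.38 ± 0.04, adjusted p = 2.63e-09). The other 6 were WARS1, CARS1, YARS1, AARS1, MARS1 and TARS1, from 0.30 down to 0.15 on the log2 scale. Unfolded protein response genes (endoplasmic reticulum) were called about as often as genes at large. Of 27 tested, 4 rose and 2 fell (1 without no dox replicate 1 or dox replicate 1). These were 14.8% and 7.41%, against 11% and 8.9% of all genes tested. XBP1, its transcription factor, was at 120.04 CPM with dox against 85.97 CPM without (log2 change 0.48 ± 0.05) and ATF6, its membrane-bound sensor, at 0.23, while CALR, the chaperone calreticulin, was at -0.22.

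Ribosomal protein messages were higher almost throughout. Of 79 genes of the cytosolic ribosome 77 rose, 0 fell and 2 were not called, and all 79 had a positive log2 change, between 0.15 and 0.56, with a median of 0.32. RPL12, a protein of the stalk base of the large subunit, had 1729.7, 1797 and 1652 CPM in the dox libraries, against 1174, 1163 and 1175 CPM in the no dox libraries (log2 change 0.56 ± 0.06, adjusted p = 2.49e-09). RPL10A was at 988 CPM with dox against 757 CPM without (0.38) and RPS12 at 1234 CPM with dox against 929 CPM without (0.41). Ribosomal protein genes took 8.84, 8.88 and 8.32% of the counts in the dox libraries, against 7.26, 7.04 and 6.97% in the no dox libraries. In the NTC line at 96 h 0 of the 79 were called by edgeR, with a median of 0.06. Many of these genes have near-identical processed copies, so the division of reads among them is uncertain. The count of risen members lay between 68 and 77 when 1 of the 6 libraries was left out.

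Host genes of small nucleolar RNAs, whose spliced messages are mostly noncoding and short-lived, rose as well. Of 18 tested 12 rose and 2 fell, with a median log2 change of 0.33 against -0.09 in the NTC line. ZFAS1 had 99.6, 99.4 and 98.3 CPM in the dox libraries, against 44.3, 40.5 and 42.5 CPM in the no dox libraries (log2 change 1.22 ± 0.06, adjusted p = 1.37e-16), with 46.9% of its exonic length shared with other annotated genes. SNHG32 had 138, 149.7 and 147 CPM in the dox libraries, against 73.00, 67.2 and 70.5 CPM in the no dox libraries (1.04 ± 0.06). For both genes the dox libraries lay well above all no dox libraries. GAS5 was at 258 CPM with dox against 151 CPM without, SNHG5 at 209 CPM with dox against 130.2 CPM without and SNHG29 at 930.4 CPM with dox against 596 CPM without. The 2 that fell were SNHG4, at -0.44, and SNHG3, at -0.21 on the log2 scale. Without no dox replicate 1 or dox replicate 3, 1 fell.

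Starts of 6 risen genes from these groups, and of the elongation factor gene EEF1A1, are shown because they begin with the letters of a 5′ terminal oligopyrimidine (TOP) tract, which is known to place translation of ribosomal protein messages under mTORC1. Each window holds 10 bases before and 15 bases from a RefSeq start on GRCh38.p14, with the C at the start and the unbroken run of C or T after it in capitals. 
RPL12, chr9:127451392-127451416, - strand: cgatttccggCCTCTCggctttcgg
RPS12, chr6:132814559-132814583, + strand: cggatgaggcCTCTTTCCCTgccgc
RPLP0, chr12:120201097-120201121, - strand: ggcgcgaggcCCTTCTCTCgccagg
EEF1A1, chr6:73521018-73521042, - strand: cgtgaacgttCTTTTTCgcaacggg
ZFAS1, chr20:49278632-49278656, + strand: gccattcgttCTTTCgcgtctgcgg
SNHG32, chr6:31834906-31834930, + strand: cattttagttCTTTTTgcgaagtgg
SNHG5, chr6:85678719-85678743, - strand: gcacttcggtCTTTTacgtcggcct
A C followed by at least 4 further C or T bases stood at a start of 47 of the 63 ribosomal protein genes with a window and of 6 of the 16 host genes, and at a start of 5.14% of 27305 genes. Fewer than 80% of the 79 ribosomal protein genes had a window, so the share is void as a measure of the list. Ribosomal protein genes with and without such a start had median log2 changes of 0.32 (47 genes) and 0.28 (16 genes), and other genes with and without it of 0.04 (802 genes) and -0.01 (11250 genes).

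Translation factors were mixed. Of 41 tested 16 rose (39.0%) and 5 fell (12.2%), against 11% and 8.9% of all genes tested. EIF1, which guards start codon choice, had 704, 726 and 700.4 CPM in the dox libraries, against 536, 521 and 544 CPM in the no dox libraries (log2 change 0.41 ± 0.04). EIF5, its partner in start codon recognition, rose by 0.31 on the log2 scale, and in the NTC line by 0.23. Elongation factors rose: EEF1A1 was at 13546 CPM with dox against 11023 CPM without, EEF2 at 6456 CPM with dox against 5433 CPM without and EEF1B2 at 493 CPM with dox against 383 CPM without. EIF4G1, the scaffold of the cap-binding complex, was lower, at 888 CPM with dox against 1056 CPM without, as were EIF2B1, EIF2B5, EIF5A and EIF2S3. Ribosome biogenesis factors did not share the rise of the ribosomal proteins: of 32 tested 5 rose and 5 fell, 15.6% each. NOB1 and UTP4 were at log2 changes of 0.16 and 0.16 and NCL and UBTF at -0.21 and -0.19. The rises numbered 1 without dox replicate 3 and 3 without no dox replicate 1 or 3 or dox replicate 2, and the falls 1 without dox replicate 1 or 2 and 2 without no dox replicate 2.

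Genes that sense ribosome collisions and clear the nascent chain were split as well, with 6 higher and 5 lower of 23. These were 26.1% and 21.7% of them, against 11% and 8.9% of all genes tested. When 1 library was left out 4 or 5 were called higher and 4 to 7 lower. Of the 6 higher 3 stayed called in every such fit, and of the 5 lower 4 did. In the difference from the NTC line 3 were higher and 3 lower. EDF1, which marks collided ribosomes, had 167, 169 and 167 CPM in the dox libraries, against 133, 134 and 127 CPM in the no dox libraries (log2 change 0.35 ± 0.05). RACK1, a ribosomal scaffold that is also a snoRNA host, was at 2555 CPM with dox against 2082 CPM without. ZNF598, the ubiquitin ligase for collided ribosomes, was at 79.1 CPM with dox against 70.7 CPM without. LTN1 and NEMF, which tag the stalled chain on the large subunit, were lower, at 66.1 CPM with dox against 79.7 CPM without and 99.4 CPM with dox against 116 CPM without, as were VCP and the collision-sensing kinase MAP3K20.

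The direction of change followed gene length. Among 13925 protein-coding genes ranked by exonic length (GENCODE 29), split into 4 classes of near-equal size, 19.7% of the shortest class, up to 3091 bases, were called higher and 4.16% lower. In the longest class, from 7310 bases, 9.05% were called higher and 17.8% lower. From the shortest to the longest class the median log2 change was 0.07, 0.02, -0.02 and -0.06. In the NTC line at 96 h the 4 medians lay between 0.01 and 0.03. The ribosomal protein genes had a median exonic length of 3109 bases and the ribosome collision and quality control genes of 6119 bases. The dox libraries were also the deeper ones, and the part of length, depth or RNA quality in these changes was not tested.

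**Figure D3:**
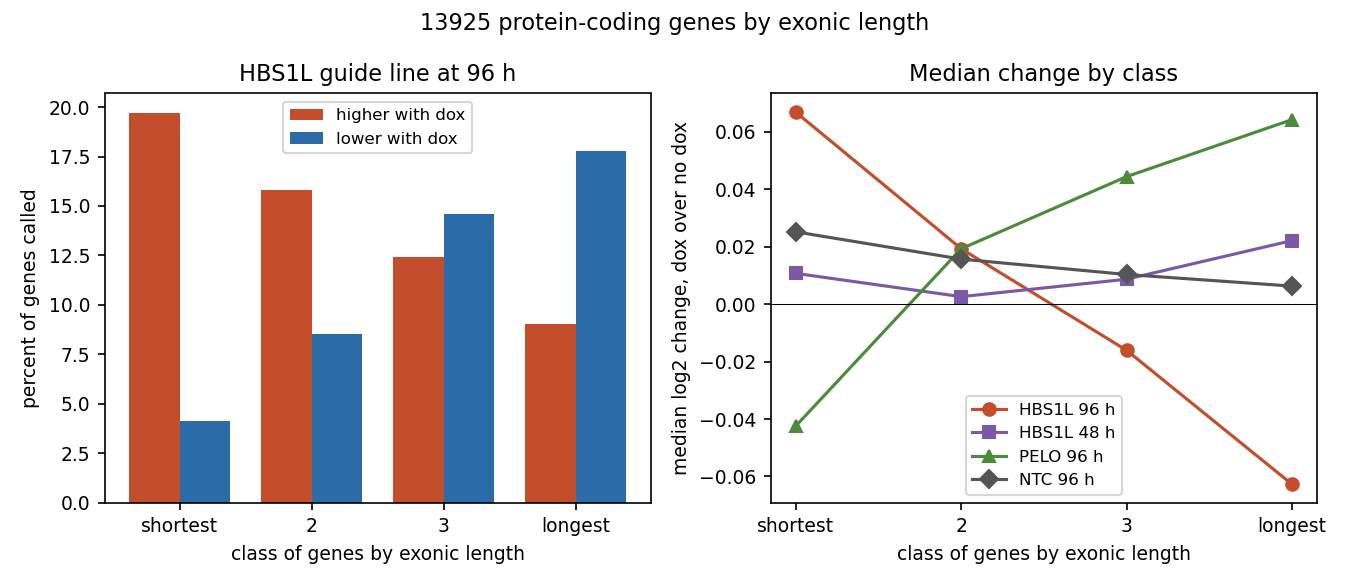
Left, percent of genes called higher or lower with dox in the HBS1L guide line at 96 h, by class of 13925 protein-coding genes from shortest to longest exonic length. Right, median log2 change (dox over no dox) by the same classes in 4 comparisons: the HBS1L line at 96 h runs from 0.07 to -0.06, the PELO line at 96 h from -0.04 to 0.06, and the other 2 stay between 0.00 and 0.03.

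Cholesterol synthesis fell almost as a unit. Of 23 genes tested 20 fell, 0 rose and 3 were not called, with a median log2 change of -0.39 against 0.07 in the NTC line. INSIG1, the sterol-regulated brake on the pathway, had 48.00, 50.03 and 46.7 CPM in the dox libraries, against 81.6, 85.7 and 83.9 CPM in the no dox libraries (log2 change -0.80 ± 0.04, adjusted p = 7.30e-18). LSS, lanosterol synthase, had 114, 109.9 and 108 CPM in the dox libraries, against 178, 193 and 188 CPM in the no dox libraries (-0.75 ± 0.05, adjusted p = 1.09e-14). HMGCS1, an early enzyme of the pathway, was at 35.6 CPM with dox against 54.9 CPM without, and DHCR7, the last step, at 68.04 CPM with dox against 109.8 CPM without. SREBF2, the transcription factor of the pathway, was at 112 CPM with dox against 138 CPM without. SCD, a fatty acid desaturase outside the list and chosen after its values were seen, had 1118, 1047 and 1068 CPM in the dox libraries, against 1789.8, 2007 and 2072 CPM in the no dox libraries. All 20 members were called lower in each fit that left out 1 library. The letters TCACNCCAC of a sterol regulatory element stood within 250 bases of a start in 1 of 14 fallen genes with a window and in 1.09% of 27305 genes, and 14 of 20 is too few for the share to be read.

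Genes of DNA replication were lower by small amounts. Of 40 tested 17 fell, 0 rose and 23 were not called, with a median log2 change of -0.14. MCM3, a subunit of the replicative helicase, had 133, 136 and 151 CPM in the dox libraries, against 192, 206 and 185 CPM in the no dox libraries (log2 change -0.47 ± 0.05, adjusted p = 1.89e-08), and MCM4 had 198, 198 and 214 CPM in the dox libraries, against 249.96, 269.9 and 237 CPM in the no dox libraries (-0.31 ± 0.05). MCM2, MCM5, MCM6 and MCM7 of the same helicase fell by 0.20 to 0.31 on the log2 scale. PCNA, the sliding clamp, was at 155 CPM with dox against 182 CPM without, and UHRF1, which keeps DNA methylation through replication, at 104 CPM with dox against 129 CPM without. The count of fallen members was 10 without no dox replicate 2 or dox replicate 1, and 11 without dox replicate 2. Mitotic genes did not fall with them: of 25 tested 7 rose and 1 fell. The falls numbered 0 without no dox replicate 2 or 3 or dox replicate 1 or 2, and 3 without dox replicate 3. In the NTC line 5 of the 25 rose and 0 fell, and in the difference between the lines 0 were higher and 2 lower. CDK1 had 126, 133 and 143 CPM in the dox libraries, against 106, 107 and 100.5 CPM in the no dox libraries and PLK1 was at 206 CPM with dox against 170.4 CPM without, and both were also called higher in the NTC line, by 0.19 and 0.17.

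Windows of 3 fallen replication genes are shown because they hold E2F letters. Matches to TTTCCCGC or TTTGGCGC on either strand are in capitals, within the 100 bases before a RefSeq start on GRCh38.p14. 
PCNA, chr20:5126623-5126722, - strand: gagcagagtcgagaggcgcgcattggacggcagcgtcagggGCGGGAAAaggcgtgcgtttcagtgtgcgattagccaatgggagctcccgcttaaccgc
MCM6, chr2:135876444-135876543, - strand: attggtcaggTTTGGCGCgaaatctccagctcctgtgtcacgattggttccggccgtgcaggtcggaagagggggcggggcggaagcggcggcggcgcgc
POLE, chr12:132687343-132687442, - strand: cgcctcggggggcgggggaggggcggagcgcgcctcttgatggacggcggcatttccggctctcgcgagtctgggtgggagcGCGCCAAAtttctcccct
The match begins 59 bases before the start in PCNA, 90 in MCM6 and 18 in POLE, the leading-strand polymerase, and in PCNA and POLE it lies on the opposite strand. Such letters stood within 250 bases of a start in 7 of the 12 fallen genes with a window and in 2.36% of 27305 genes; with windows for 12 of 17 members the share is void as a measure of the list.

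SR splicing factors fell too. Of 17 tested 9 fell and 0 rose, with 6 to 10 lower when 1 library was left out. SRSF2 had 164, 172 and 189 CPM in the dox libraries, against 241, 238 and 214 CPM in the no dox libraries (log2 change -0.40 ± 0.05, adjusted p = 1.84e-07), with 36.7% of its exonic length overlapped, and SRSF1 was at 246 CPM with dox against 300.3 CPM without (-0.29 ± 0.04), with 60.7% overlapped. SRSF5 and the SR kinase CLK2 fell by 0.32 and 0.32 on the log2 scale in the HBS1L line and had log2 changes of -0.28 and -0.32 in the NTC line. Of 14 nonsense-mediated decay factors 2 fell, or 14.3%, against 8.9% of all genes tested. They were SMG6 at -0.26 and the helicase UPF1 at -0.21, and DESeq2 called 5 lower. The falls numbered 0 without no dox replicate 2, 1 without dox replicate 1 or 2 and 4 without dox replicate 3, and the call of UPF1 was lost without no dox replicate 2 or dox replicate 1. BCLAF1, a nuclear RNA-processing protein encoded near HBS1L, had 172, 182 and 199 CPM in the dox libraries, against 238, 252 and 240.4 CPM in the no dox libraries (log2 change -0.40 ± 0.05). Among 11 genes tested around HBS1L on 6q23, 4 fell and 1, RPS12, rose; 2 fell without no dox replicate 1 or 2 or dox replicate 2, and 2 rose without no dox replicate 2 or dox replicate 1.

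Rises were also called for single genes of redox, signalling and cell cycle control. FDXR, a mitochondrial ferredoxin reductase, had 60.5, 62.04 and 61.5 CPM in the dox libraries, against 35.01, 37.4 and 36.9 CPM in the no dox libraries (log2 change 0.75 ± 0.06, adjusted p = 6.41e-12), and PHLDA3, a repressor of AKT signalling, had 7.13, 8.36 and 8.05 CPM in the dox libraries, against 4.61, 4.18 and 4.22 CPM in the no dox libraries (0.85 ± 0.09). CDKN1A, the cell cycle inhibitor p21, was at 7.92 CPM with dox against 3.32 CPM without (log2 change 1.25).

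NRF2 targets of the antioxidant response rose as well. Of 24 tested 15 rose and 0 fell, and 7 rose in the NTC line at 96 h. In the difference between the lines 9 were higher and 0 lower. When 1 library was left out 13 or 14 rose, and 12 stayed called in every such fit. AKR1C1, an aldo-keto reductase, had 337, 356 and 376 CPM in the dox libraries, against 175, 176 and 161 CPM in the no dox libraries (log2 change 1.06 ± 0.06 here and 0.41 ± 0.06 in the NTC line). AKR1C2 was at 22.5 CPM with dox against 11.9 CPM without; AKR1C1, AKR1C2 and AKR1C3 are close paralogs and their reads may be shared. NQO1 was at 685 CPM with dox against 511 CPM without, and the ferritin chains FTL and FTH1 at 3510.04 CPM with dox against 2644 CPM without and 1951 CPM with dox against 1296 CPM without.

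Growth factor and immediate early genes moved partly with dox in the control line too. Of 25 genes of the AP-1 and immediate early list 13 rose and 0 fell, and 6 rose in the NTC line. For 5 of the 25 the difference between the lines was called higher, and for 0 lower. When 1 library was left out 10 to 13 rose. DUSP5, an ERK phosphatase, had 18.6, 20.8 and 19.9 CPM in the dox libraries, against 10.9, 11.8 and 11.97 CPM in the no dox libraries, a log2 change of 0.78 ± 0.07, against 0.64 ± 0.07 in the NTC line. CCN1, a matrix signal, changed by 0.47 ± 0.05 and by 0.49 ± 0.05 in the NTC line. AREG, a ligand of the EGF receptor, had 91.4, 93.5 and 88.6 CPM in the dox libraries, against 60.96, 57.9 and 62.1 CPM in the no dox libraries (0.60 ± 0.05), against -0.08 ± 0.05 in the NTC line. Of 22 RAS-MAPK output genes 7 rose and 2 fell, and in the NTC line 6 rose and 1 fell. The difference between the lines was called higher for 4 of them and lower for 2.

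Immune pathways had calls in both directions, beside 11% higher and 8.9% lower over all genes tested. Rises took 13.6% of NF-kB genes, 10.3% of interferon-stimulated genes and 26.7% of MHC class I genes, so the first 2 were near that share. Falls took 22.7%, 20.7% and 20% of the same lists. Of 22 NF-kB genes 3 rose and 5 fell, and 3 fell without no dox replicate 2, dox replicate 1 or dox replicate 3. In the NTC line 8 of them rose and 0 fell, and in the difference between the lines 0 were higher and 7 lower. BIRC3, an inhibitor of apoptosis, had 17.7, 18.3 and 20.01 CPM in the dox libraries, against 22.8, 25.1 and 25.6 CPM in the no dox libraries (log2 change -0.39 ± 0.06), and TNFAIP3, a brake on NF-kB, was at 2.62 CPM with dox against 3.99 CPM without (-0.60 ± 0.11). Of 29 interferon-stimulated genes 3 rose and 6 fell. By edgeR 0 rose without no dox replicate 1 or 2 or dox replicate 1 or 2. The NTC line also had falls on this list, with 0 higher and 6 lower and a median log2 change of -0.22, against -0.03 in the HBS1L line. The difference between the lines was called higher for 6 and lower for 1. IFIT2 and PARP9 had log2 changes of -0.30 ± 0.05 and -0.34 ± 0.07, and IFIT2 changed by -0.30 ± 0.05 in the NTC line. HLA-B and HLA-C, which are near copies and may share reads, had log2 changes of 0.42 and 0.42. Of 15 MHC class I genes 4 rose and 3 fell, with 1 fall without no dox replicate 3.

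Calls among death and recycling genes were modest in size. Over all genes tested 11% were called higher and 8.9% lower, 19.9% in all. Of genes at 1 CPM or more 27.0% were called. The shares called here were 36% of the BCL2 and death receptor genes, 27.8% of the autophagy and lysosome genes and 12.9% of the proteasome genes. Of 25 genes of the BCL2 family and death receptors 6 rose and 3 fell: PMAIP1, the BH3-only protein NOXA, was at 15.9 CPM with dox against 11.6 CPM without, BBC3, which encodes PUMA, at 22.3 CPM with dox against 18.9 CPM without, and the protective BCL2L1 at 128 CPM with dox against 103 CPM without. Of 36 autophagy and lysosome genes 9 rose and 1 fell, a fall lost without no dox replicate 3. WIPI1, which binds the forming autophagosome, had 23.2, 24.8 and 24.2 CPM in the dox libraries, against 14.2, 15.01 and 16.2 CPM in the no dox libraries (log2 change 0.67 ± 0.06), and CTSL, a lysosomal protease, was at 253 CPM with dox against 183 CPM without. Proteasome subunits were called lower in 4 of 31, PSMD1 and PSMC2 at -0.19 and -0.17, and 0 were called higher; without no dox replicate 2, dox replicate 1 or dox replicate 2 the count lower was 2.

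Genes of energy metabolism were called in both directions. In the fit used for all calls here, those of the respiratory chain were called less often than genes at large. That order reversed with no filter on low counts and in a fit of only the groups compared. Of all genes tested 19.9% were called. The shares were 12.7% for respiratory chain genes, 45.8% for glucose uptake and glycolysis, and 10.5% for heat shock genes. YAP and TEAD targets stood at 35% and collagen and matrix genes at 25.9%. Of 63 nuclear-encoded respiratory chain genes 5 rose and 3 fell, with NDUFS8 at 0.21; 16 rose with no filter on low counts, 18 in a fit of only the groups compared, 2 without each of no dox replicates 2 and 3 and dox replicates 1 and 2, and 3 without no dox replicate 1, and 1 fell without no dox replicate 2. MT-ND5 was the 1 called of 13 protein genes encoded in mitochondria. It had 420.02, 380.2 and 296 CPM in the dox libraries, against 659, 456 and 542 CPM in the no dox libraries. Its call was lost without no dox replicate 1 or 3 or dox replicate 2 or 3. It was also lost in a fit of only the groups compared, with a replicate block and with no filter on low counts. Of 24 genes of glucose uptake and glycolysis 8 rose and 3 fell, with 4 or 5 rising without any 1 of 5 libraries (no dox replicate 3 was the exception, without which 1 fell). NDRG1 was at 22.7 CPM with dox against 16.5 CPM without and the lactate exporter SLC16A3 at 178 CPM with dox against 154 CPM without. Heat shock genes gave 1 rise (HSF1) and 1 fall (DNAJB6) of 19, with 2 rises without no dox replicate 2 and 2 falls without no dox replicate 3 or dox replicate 3. Of 20 YAP and TEAD targets 3 rose and 4 fell, and of 27 collagen and matrix genes also 3 and 4; of the YAP and TEAD targets 2 fell without no dox replicate 3, dox replicate 1 or dox replicate 2. Among the matrix genes COL3A1 had 10.4, 9.90 and 8.02 CPM in the dox libraries, against 14.7, 14.4 and 15.4 CPM in the no dox libraries and COL17A1 was at 124 CPM with dox against 150.4 CPM without.

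**Figure D4:**
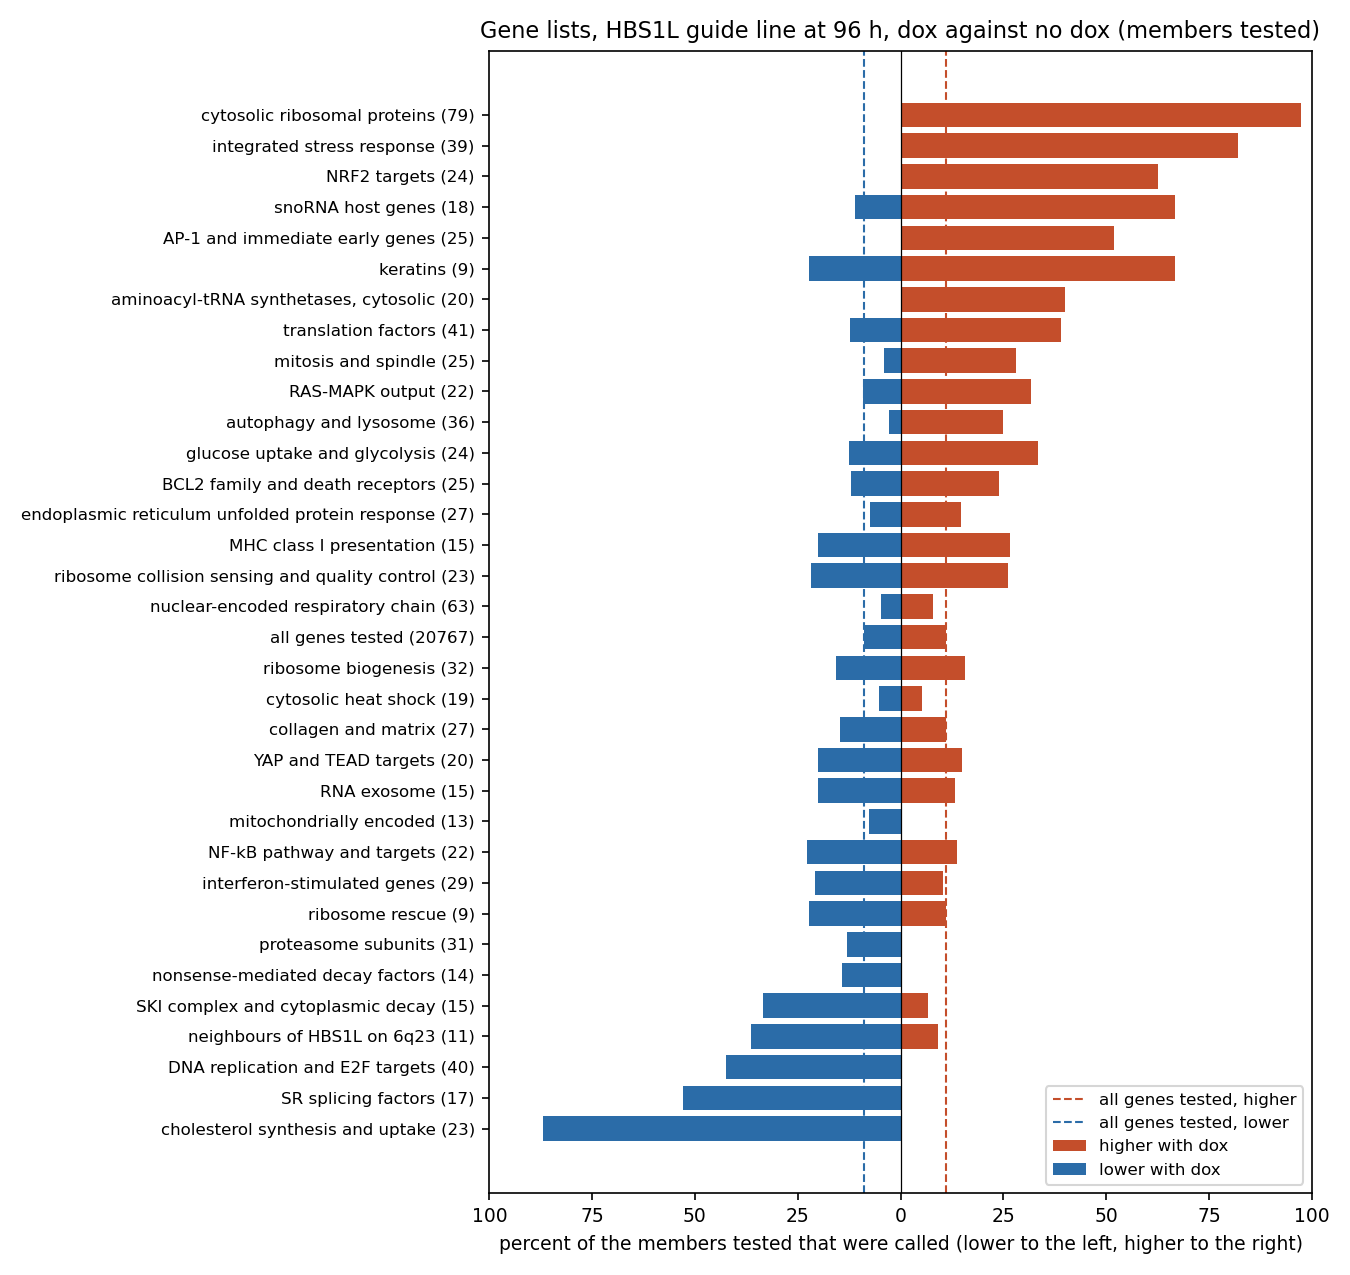
Percent of each list's tested members called higher (right) or lower (left) with dox in the HBS1L guide line at 96 h, for 33 lists and for all genes tested; the number in brackets is the members tested and dashed lines mark the 11% and 8.9% of all genes. Ribosomal proteins and integrated stress response genes stand at the top and cholesterol synthesis genes at the bottom.

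The largest rises among called genes that averaged at least 1 CPM and whose groups did not overlap were mostly of genes with low levels. LAMP3, a lysosomal membrane protein, had 1.71, 1.66 and 2.51 CPM in the dox libraries, against 0.370, 0.406 and 0.203 CPM in the no dox libraries (log2 change 2.58 ± 0.21). The hair keratins KRT86 and KRT81, which are near copies that may share reads, were at 2.17 CPM with dox against 0.419 CPM without and 4.66 CPM with dox against 0.989 CPM without (2.36 ± 0.19 and 2.24 ± 0.13). Of 9 keratins tested 6 rose and 2 fell, and 3 rose without no dox replicate 1, while 1 fell without any 1 library other than dox replicate 1. NIBAN1, a stress-induced regulator of translation, had 76.5, 87.8 and 103 CPM in the dox libraries, against 23.3, 22.2 and 25.2 CPM in the no dox libraries (log2 change 1.92 ± 0.09, adjusted p = 1.49e-16), and in the NTC line it changed by 0.48 ± 0.09. UNC5B, a netrin receptor, had 18.6, 22.04 and 24.9 CPM in the dox libraries, against 5.76, 6.31 and 6.41 CPM in the no dox libraries (1.83 ± 0.09). BCAT1, which begins the breakdown of branched-chain amino acids, was at 5.83 CPM with dox against 1.76 CPM without (1.73). The others of the 12 largest rises were KLHDC7B, CHST1, GDF15, LINC01629, LCN2 and RAB39B, with log2 changes from 1.55 down to 1.41. All 12 were also called higher in the difference from the NTC line. That difference holds the same 6 libraries by which they were picked, so it is no separate support. Some, LAMP3 and KRT86 among them, reached the mean of 1 CPM only through their dox libraries.

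Of the 12 largest falls by the same rule several were shared with the NTC line. IL21R, a cytokine receptor, had 0.531, 0.468 and 0.410 CPM in the dox libraries, against 2.20, 2.07 and 2.13 CPM in the no dox libraries (log2 change -2.18 ± 0.16), against -0.36 ± 0.13 in the NTC line. CDH5, the endothelial cadherin, had 9.93, 9.87 and 8.56 CPM in the dox libraries, against 16.03, 16.2 and 22.5 CPM in the no dox libraries (-0.95 ± 0.14), while of the other endothelial markers PECAM1 and KDR were at no more than 2 counts, VWF at no more than 9 and EMCN at 103 to 130, and ENG was at 64.8 CPM with dox against 61.6 CPM without and was not called. RNF207, LAMB2, SEC31B and C1RL-AS1 had log2 changes of -1.08, -0.95, -0.93 and -0.89 in this line and of -0.79, -0.97, -0.86 and -0.80 in the NTC line, and FLG of -0.91 and -2.03; SEC31B was not called in the NTC line (adjusted p = 0.0661). The difference between the lines was not called for any of these 5 (adjusted p from 0.115 to 0.986). The call of SEC31B was lost without no dox replicate 1 and that of FLG without no dox replicate 3. The remaining 5 of the 12 were MT-TT, ENSG00000261379, ITGA10, HYAL1 and HBS1L.

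In the line with the NTC guide 1561 genes were called at 96 h, 808 higher (3.89%) and 753 lower (3.63%), or 7.52% of those tested. The genes shared with the HBS1L line were 214 that rose in both, 9.40% of the 2276 and 26.5% of the 808, and 191 that fell in both, 10.3% of the 1848 and 25.4% of the 753. In the opposite direction, 48 of the 2276 fell in the NTC line and 81 of the 1848 rose there. The response of the HBS1L line minus that of the NTC line was called for 2228 genes, 10.7%, with 1123 higher (5.41%) and 1105 lower (5.32%); without no dox replicate 2 of the HBS1L line it was called for 1413, and the lower genes numbered 641 without that library, 724 without dox replicate 1 and 716 without dox replicate 2. In that difference 32 of 39 integrated stress response genes were higher and 1 lower, 33 of 79 ribosomal protein genes and 12 of 18 snoRNA hosts were higher and 0 lower, 20 of 23 cholesterol genes were lower and 0 higher, and 14 of 40 replication genes were lower and 0 higher. The ribosomal protein genes higher in it numbered 19 to 21 without no dox replicate 3, dox replicate 1 or dox replicate 2, and the 1 lower stress gene was not called without no dox replicate 2 or 3 or dox replicate 1 or 2. PHGDH differed by 1.04 ± 0.06, ZFAS1 by 1.16 ± 0.09 and INSIG1 by -0.94 ± 0.05 on the log2 scale (adjusted p = 1.27e-14, 2.28e-11 and 4.02e-15).

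The same line at 48 h gave the opposite sign for stress genes. At 48 h 4465 genes were called, 2098 higher (10.1%) and 2367 lower (11.4%), or 21.5%, and none of those libraries is shared with the 96 h comparison. Of the 39 integrated stress response genes 38 fell and 0 rose at 48 h (median -1.07), and the change between the times was called for 36, all higher at 96 h. GDF15 changed by -1.73 ± 0.09 at 48 h and by 1.52 ± 0.09 at 96 h, a difference of 3.25 ± 0.13 (adjusted p = 4.64e-19). For PHGDH the change at 48 h was -0.78 ± 0.04. Levels without dox also differed between the times. GDF15 averaged 44.49 CPM without dox at 48 h and 10.14 CPM without dox at 96 h. For PHGDH these means were 225.99 and 109.31 CPM, and for ATF5 281.95 and 123.46 CPM. With dox at 48 h GDF15, PHGDH and ATF5 averaged 13.35, 131.16 and 122.88 CPM. Whether the opposite signs reflect the guide or the differing levels without dox was not tested, and the NTC line at 48 h is not set beside them here. Replication genes rose in 25 of 40 at 48 h and fell in 17 at 96 h, and 29 differed between the times. Of the cholesterol genes 15 of 23 fell and 2 rose at 48 h, with INSIG1 at -0.68 ± 0.04. Ribosomal proteins were called in 1 of 79 at 48 h and 63 differed between the times. In all 4658 genes, 22.4%, had a response that differed between 96 h and 48 h, 2536 (12.2%) higher at 96 h and 2122 (10.2%) lower. Library numbers of 48 h and 96 h samples come from different runs of numbers, so time and batch cannot be told apart.

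The PELO line at 96 h, with 13874 genes called (66.8%, 34.4% higher and 32.5% lower), moved more genes. Of the genes that rose in the HBS1L line 1335 rose in the PELO line, 58.7% of the 2276 and 18.7% of its 7135, and of those that fell 938 fell there, 50.8% of the 1848 and 13.9% of its 6739. In the opposite direction, 561 of the 2276 (24.6%) fell in the PELO line and 491 of the 1848 (26.6%) rose there. The difference between the 2 responses was called for 11525 genes, 55.5%, with 26.4% higher and 29.1% lower in the HBS1L line. Integrated stress response genes rose in 27 of 39 and fell in 5 in the PELO line, PHGDH among the falls, at -0.46 ± 0.04 against 0.95 ± 0.04 in the HBS1L line. ZFAS1 changed by 2.70 ± 0.07 in the PELO line and INSIG1 by -1.87 ± 0.04. Ribosomal protein genes rose in 33 of 79 and fell in 8 there, and in the difference 36 were higher in the HBS1L line and 0 lower, with 23 higher without dox replicate 1. Interferon-stimulated genes fell in 25 of 29 in the PELO line, against 6 in the HBS1L line, and respiratory chain genes in 52 of 63 against 3. SR factors rose in 12 of 17 there, against 9 that fell in the HBS1L line.

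**Figure D5:**
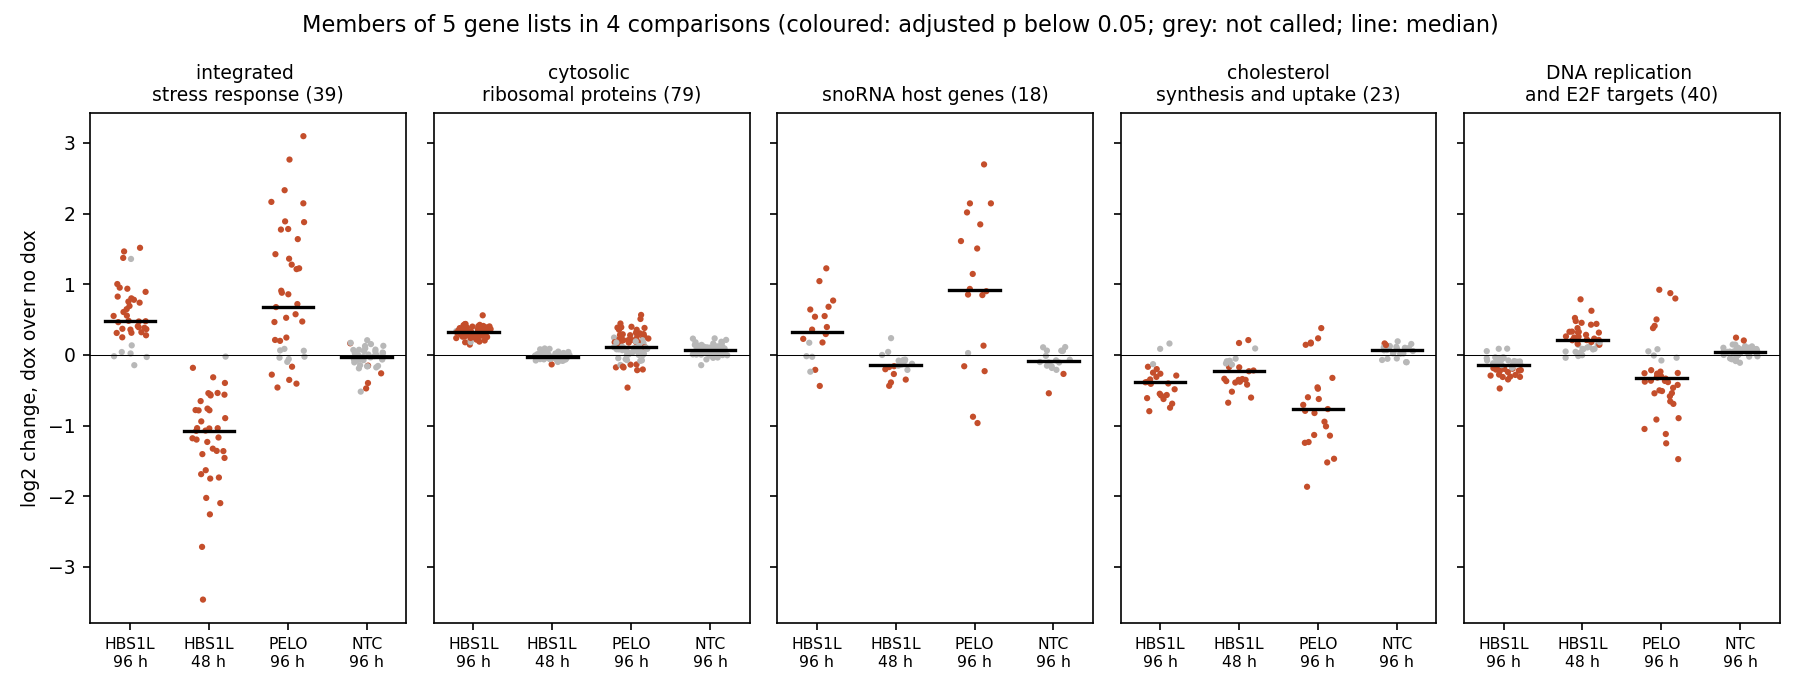
Log2 change with dox (vertical axis, dox over no dox) of the members of 5 lists in 4 comparisons: the HBS1L line at 96 h and at 48 h, the PELO line at 96 h and the NTC line at 96 h. Points are genes, coloured where called and grey where not, and lines are medians; most stress genes lie above 0 at 96 h and below 0 at 48 h in the HBS1L line, and near 0 in the NTC line.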

How the data were processed

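Tools named in the submitters' processing notes were DRAGEN, featureCounts, Subread, edgeR and limma, and the build named there was GRCh38.p13. For these the sources used here give no version, option, strand setting or annotation. The deposited count table holds expected counts, fractional read counts per Ensembl gene. A second deposited table, the authors' log2 CPM for 17138 genes, served for 1 alternative. After rounding to whole numbers the counts were fitted in R 4.3.3 with edgeR 4.0.16: filterByExpr (minimum count 10, minimum total 15) kept 20767 of 61544 genes, with at least 99.9% of the counts of each library. Library sizes were scaled by TMM, and a robust quasi-likelihood model with 1 mean for each of 12 groups was fitted to 36 libraries. Contrasts were tested by the quasi-likelihood F test with Benjamini-Hochberg adjustment at 0.05. SEs are the size of the log2 change divided by the square root of F. Symbols matched 17385 genes; exonic lengths and overlaps came from GENCODE 29 (GRCh38). DESeq2 1.42.0 and limma 3.58.1 were alternatives. The fit was also run on counts simulated from its own means and spreads, which checks the code and does not test the calls made here. The members, 35 gene lists and the rule for names were chosen with earlier results of these data known. The rule named HBS1L, PELO, FOCAD and the SKI genes, the 2 called members of smallest p in each list with at least 3 called (in both directions where the counts were equal), the called member of smallest p in other lists, and the 12 largest rises and falls among called genes that averaged 1 CPM or more and whose groups did not overlap. Other members named, and SCD, were chosen after their values were seen. Some members and 1 list are not reported here.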

Additional observations from a re-analysis of the deposited data

Results flagged for a closer look

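Responses that differed by a test of the difference itself are collected here. The response of the HBS1L line at 96 h differed from that of the NTC line in 2228 genes and 58 of the 90 named genes, from that of the same line at 48 h in 4658 genes and 68 named genes, and from that of the PELO line at 96 h in 11525 genes and 69 named genes. Against the NTC line the difference was called for 33 members of the integrated stress response, 33 ribosomal protein genes, 12 snoRNA hosts, 20 cholesterol genes and 14 replication genes. Between 96 h and 48 h it was called for 36 members of the integrated stress response, 63 ribosomal protein genes, 12 snoRNA hosts, 9 cholesterol genes and 29 replication genes. Of the named genes 32 were called in opposite directions at the 2 times with the difference called, among them KLHDC7B, RAB39B and GDF15, with differences of 3.47, 3.28 and 3.25 on the log2 scale (96 h minus 48 h). Most named genes were picked by their change in the 6 libraries, which enter each difference, so the counts of named genes are no separate support. What causes these differences was not tested.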

How the results depend on the processing

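The directions of all 90 named genes held under RLE scaling, no filter on low counts, a fit of only the groups compared, a replicate block and DESeq2, and those of the 81 tested under limma on the authors' log2 CPM. Most of these genes were picked by their change in the same counts, so their directions could hardly have differed. Genes called in the HBS1L line at 96 h numbered 4124, and 2898 to 3745 when 1 library was left out; HBS1L stayed between -1.72 and -1.70. The difference from the NTC line ranged from 1413 (without no dox replicate 2) to 2466, that between times from 3991 to 4287 and that from the PELO line from 10982 to 11423. Genes past 2-fold numbered 150 (97 up, 53 down), 137 to 160 with 1 library left out, 69 (57 up, 12 down) by DESeq2 and 73 (59 up, 14 down) by limma on 17138 genes; the cause was not tested. The replicate block gave 3791 calls. Deviations of same-numbered libraries correlated at 0.16, -0.10 and -0.04, so the numbers were not taken as pairs. No filter took 6 named genes past the threshold to not called, and leaving out 1 library took 3 to 5. Of 6534 genes below 1 CPM 4.39% were called, with a median SE of 0.35 on the log2 scale, and of 14233 genes at 1 CPM or more 27.0% were, with a median SE of 0.065.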
